A study of Mus musculus with 4 samples.

Results

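The genes described here make the folding and export machinery of the endoplasmic reticulum (ER), with the enzymes and chaperones that collagen needs to leave the cell. The set holds 37 genes, listed by name for their known roles, and 36 of them had a probe set on the array among 18193 genes measured, of which 11694 were tested. Fkbp10, a prolyl isomerase that assists collagen, was not analysed here. RNA came from the trachea of C57BL/6 mouse embryos at embryonic day 16, with 2 samples labelled wild type and 2 labelled a1H knockout, 1 Affymetrix array each. The name a1H is read here as the product of Cacna1h, the pore of a T-type calcium channel, and the comparison asks which transcripts differ without it. The labels name neither the deleted part of the gene nor the litters, the number of embryos per sample or any pooling, so the spread between the samples of a genotype may be technical.

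Secreted and membrane proteins enter the ER through the Sec61 channel and fold there with the help of chaperones such as BiP, calreticulin and the protein disulfide isomerases. Procollagen chains also undergo lysyl and prolyl hydroxylation and isomerisation of prolines as they form a triple helix, which the chaperone Hsp47 binds. The long rod then leaves in coated carriers built from COPII proteins with the help of the cargo receptor TANGO1, which Mia3 encodes. When unfolded protein builds up, the factors ATF6 and XBP1 raise transcription of the chaperones through a short promoter sequence, the ER stress response element (ERSE). Cartilage cells, which build the rings of the trachea, secrete large amounts of collagen and depend on this machinery.

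That element was present in several of the promoters. The genes were listed for known roles, which include the stress response. Their share of matches is therefore a description and not independent of that choice. RefSeq promoters of the mouse build GRCm38.p6, 250 bases before to 50 bases after each annotated start, were found for 29 of the 37 genes, with 30 promoters in all. The ERSE was searched as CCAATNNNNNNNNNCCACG on both strands and was found in 6 of the 30 promoters, or 20%, against 39 of 32851 promoters of all genes, or 0.119%. The related ERSE-II, searched as ATTGG and CCACG with 1 base between them, was in 2 of the 30 and in 0.0365% of all promoters. The unfolded protein response element (UPRE), searched as TGACGTGG, was in 2 and in 0.676%. Among 106 promoters of other genes of the same ER steps, the ERSE was in 3.77%, the ERSE-II in 0% and the UPRE in 5.66%, the last close to the 6.67% of the 30. ERSE and ERSE-II both hold CCACG, the UPRE holds its reverse complement, and no gene of the set had more than 1 of the 3 elements. The matches before the annotated start of a promoter follow with 20 bases on either side, fewer where the start is closer. They read 5′ to 3′ on the gene's strand, with the match in capitals. For Sec24d the promoter belongs to an internal start, since the annotated gene begins at 123264801, so its match lies within the gene. A match on the other strand reads as its reverse complement.

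Hspa5, ERSE, chr2:34772005-34772063, plus strand: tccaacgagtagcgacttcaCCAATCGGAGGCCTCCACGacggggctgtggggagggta
Hsp90b1 (first match), ERSE, chr10:86705618-86705676, minus strand: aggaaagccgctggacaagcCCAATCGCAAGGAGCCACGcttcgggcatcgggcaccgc
Hsp90b1 (second match), ERSE, chr10:86705513-86705571, minus strand: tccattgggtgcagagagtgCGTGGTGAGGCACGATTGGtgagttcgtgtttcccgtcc
Calr, ERSE, chr8:84847055-84847113, minus strand: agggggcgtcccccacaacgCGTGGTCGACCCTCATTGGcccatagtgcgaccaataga
Canx, ERSE, chr11:50325780-50325838, minus strand: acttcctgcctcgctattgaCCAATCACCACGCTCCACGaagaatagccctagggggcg
Dnajc3, ERSE, chr14:118937807-118937865, plus strand: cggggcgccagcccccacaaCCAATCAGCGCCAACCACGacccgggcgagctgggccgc
Pdia6, ERSE, chr12:17266471-17266529, plus strand: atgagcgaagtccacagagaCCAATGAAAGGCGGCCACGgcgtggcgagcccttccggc
Herpud1, ERSE-II, chr8:94386357-94386407, plus strand: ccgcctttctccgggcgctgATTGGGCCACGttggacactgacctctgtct
Sec24d, UPRE, chr3:123267450-123267495, plus strand: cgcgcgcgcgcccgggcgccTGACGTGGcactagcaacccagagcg

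**Figure D1:**
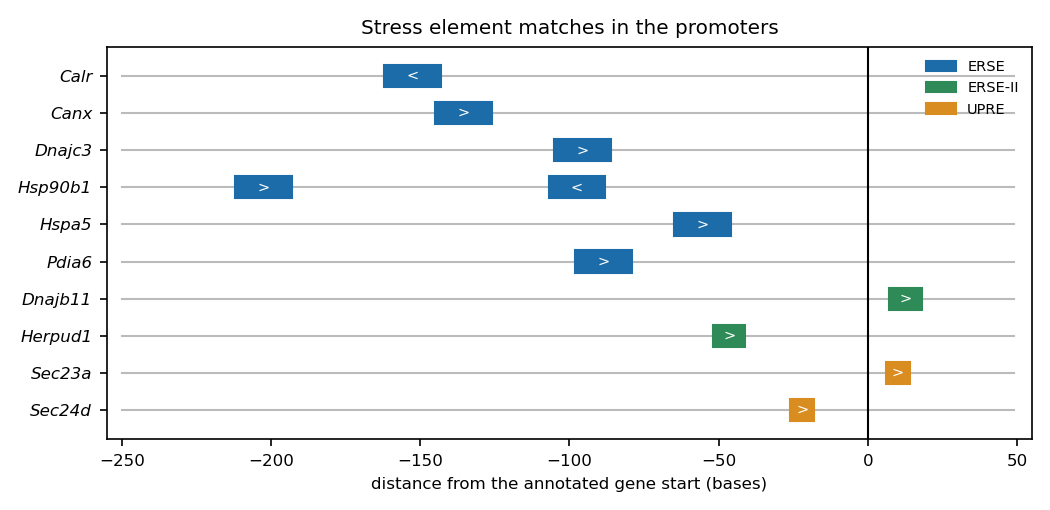
Positions of the ERSE, ERSE-II and UPRE matches in the promoters that hold one, with arrowheads for the strand relative to the gene. Distance is in bases from the annotated start of the promoter, which for Sec24d is an internal start. ERSE matches lie before the start in all 6 genes that have one, and Hsp90b1 has 2; the matches of Dnajb11 and Sec23a lie after the start.

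Hsp90b1 had an ERSE on each strand, and the other ERSE promoters had 1 match each, in reverse orientation in Calr. The genes with an ERSE were 5 chaperone genes and the disulfide isomerase gene Pdia6, while no collagen-modifying gene had an exact match in this window. The 5 bases CCACG alone were in 23 of the 30 promoters, or 76.7%, in 67.0% of the promoters of other genes of these steps and in 32.8% of all. A match of these letters is a description and not evidence that a factor binds there.

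The arrays carried defining markers of trachea, and some of other tissues. All 6 cartilage markers and all 6 smooth muscle markers were above the level filter, a signal of 397, on every array, as were 6 of 7 airway epithelium markers, the exception being Nkx2-1 at 337 or less. The cartilage markers summed to 72097 and 89023 on the wild-type arrays and 60129 and 85457 on the labelled-knockout arrays, and those of smooth muscle to 42254 and 60905 on the wild-type arrays and 47044 and 42301 on the labelled-knockout arrays. The airway epithelium markers summed to 38554 and 54168 on the wild-type arrays and 31962 and 34089.6 on the labelled-knockout arrays, with both knockout arrays below both wild-type arrays, and the part of this in the genes that were lower was not tested. Cacna1h itself was not lower in the labelled knockout, at 630 and 538 in wild type against 981 and 631 on its brighter probe set, and since the deleted part of the gene is not stated this leaves the genotypes unchecked. The spiked hybridisation controls had geometric means of 4787 and 4744 on the replicate 1 arrays of wild type and labelled knockout and 11598 and 14007 on the replicate 2 arrays. Over the genes tested the 99th percentile of signal was 18608 and 18445 on the former and 25175 and 27021 on the latter, so bright probe sets read higher on the replicate 2 arrays. Markers of other tissues differed between samples of the same genotype. The sum over 4 measured placental markers was 673 and 829.9 on the wild-type arrays and 456 and 107419 on the labelled-knockout arrays, all 4 above the level filter on labelled knockout replicate 2 and at most 1 on any other array. The sum over 7 measured thymocyte markers was 4819.7 and 13027 on the wild-type arrays and 26849 and 10641 on the labelled-knockout arrays, and 7 skeletal muscle markers summed to 68223 and 100352 on the wild-type arrays and 70654 and 97378 on the labelled-knockout arrays. Over 3 measured plasma and B cell markers, of cells rich in ER, the sum was 365 and 824 on the wild-type arrays and 778 and 299.9 on the labelled-knockout arrays. No marker was listed at 0 on any array, and the part of these tissues in genes that were highest on the array with placental transcripts, such as Plod1, Crtap, Leprel1 and Sec13, was not tested. Fewer cells of a type and less RNA per cell cannot be told apart in bulk tissue. Probe sets of the 36 genes were bright as a group, with a median at the 80.5th percentile of those tested, and levels of different genes are not ranked because signal depends on the probes.

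No gene of the set differed between the genotypes beyond the error of 2 arrays per group. Signals were compared as log2(signal + 16) with limma over all genes tested and Benjamini-Hochberg adjustment, and differences are given as labelled knockout minus wild type. Of the 36 genes, 0 had an adjusted p under 0.05, against 0% of all genes tested, and 0 had an unadjusted p under 0.05, against 4.58% of all. Over all genes 492 were called when labelled knockout replicate 1 was left out and 104 when labelled knockout replicate 2 was, and 0 of the 36 in each case. The set had 17 genes higher and 19 lower, with a median log2 difference of -0.033 beside 0.039 over all genes tested. With each array centred on its median, which moved all genes upwards, 5 of the 36 were lower. For 34 of 36 the log2 difference was under 0.5 in size, or 94.4%, against 90.7% of all genes. The 95% interval lay within -1 and 1, a 2-fold difference either way, for 32 of the 36, before adjustment for the number of genes. The exceptions were Pdia4, Dnajb9, Sdf2l1 and Sec61a1.

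Where single arrays are compared on the deposited scale, the set showed more lower than higher genes, which was not tested. These counts were not made on arrays centred on their medians, where 5 of the 36 had a negative log2 difference. Both knockout arrays lay below both wild-type arrays for 7 of 36 genes, against 14.6% of all genes tested. Both lay above for 2, against 21.5% of all. The 7 were Hsp90b1, Dnajb9, Dnajc3, Pdia4, Pdia5, Plod2 and Sec24d, and the 2 were Dnajb11 and Herpud1. Within both replicate numbers, 14 genes were lower, against 26.3% of all, and 5 were higher, against 36%. With 2 arrays per group an exact two-sided permutation test of 1 gene cannot give a p below 0.333.

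**Figure D2:**
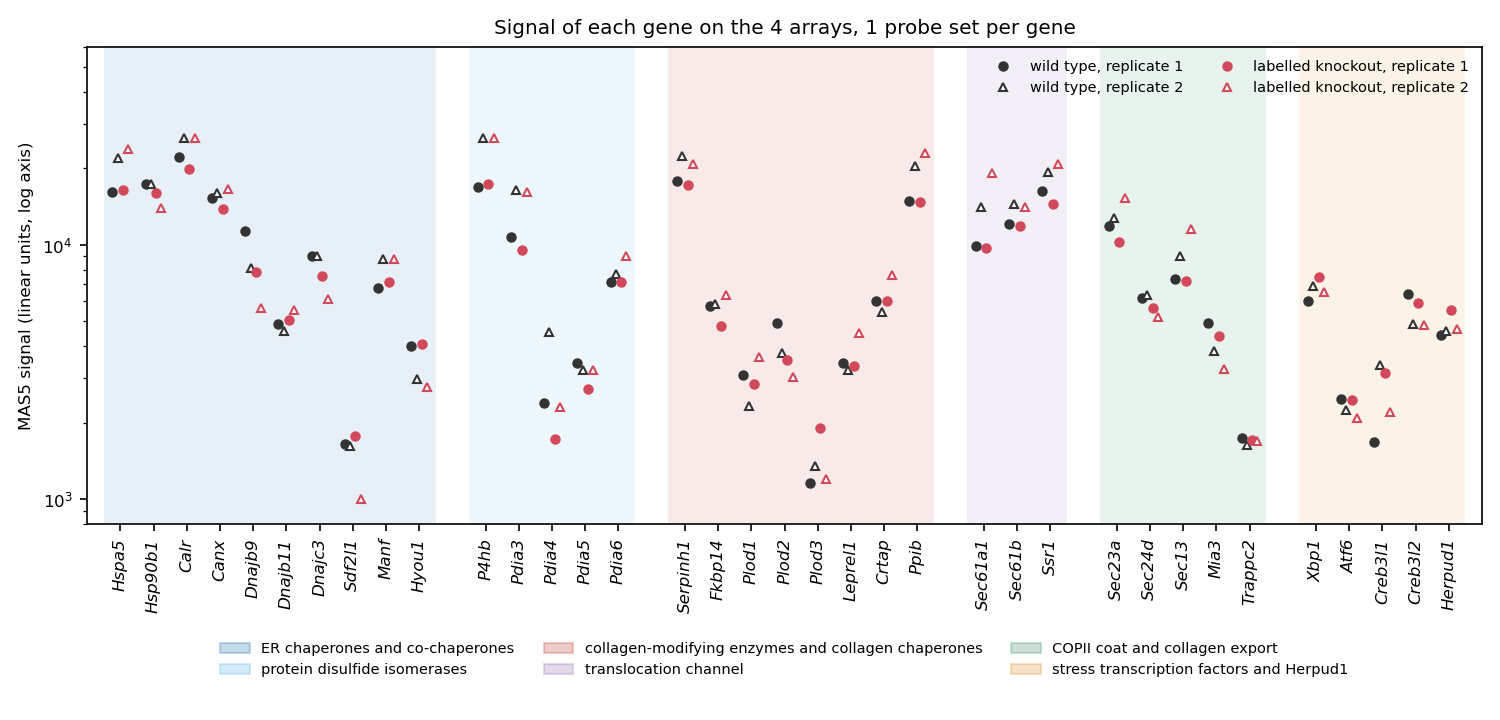
MAS5 signal (log axis) of each of the 36 genes on the 4 arrays, grouped by role; circles are replicate 1 and triangles replicate 2, black for wild type and red for the labelled knockout. Pdia4, Dnajb9, Dnajc3 and Plod2 have both red symbols below both black ones, while for Hspa5, P4hb, Pdia3 and Ppib the triangles of both genotypes lie above the circles.

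Among the chaperones and co-chaperones, the 2 J-domain proteins Dnajb9 and Dnajc3 had the largest differences in size. Hspa5 encodes BiP, the Hsp70 chaperone of the ER lumen, and read 16118 and 21875 on the wild-type arrays and 16458 and 23820.1 on the labelled-knockout arrays. The replicate 2 arrays were higher in both genotypes and the groups overlapped, with a log2 difference of 0.076, an SE of 0.30 and a 95% interval of -0.64 to 0.79. Dnajb9, a J-domain co-chaperone of BiP that is a known XBP1 target, read 11364 and 8104 on the wild-type arrays and 7789 and 5625 on the labelled-knockout arrays. Both knockout arrays were below both wild-type arrays, with labelled-knockout replicate 1 only just below wild-type replicate 2. Its log2 difference was -0.53 with an SE of 0.25 and a limma adjusted p of 0.875, and was -0.54 within replicate 1 and -0.53 within replicate 2.

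Dnajc3, also called p58IPK, recruits BiP to nascent chains and read 9023 and 9053 on the wild-type arrays and 7541 and 6152 on the labelled-knockout arrays. The wild-type arrays were nearly equal and both knockout arrays lay below them, with a log2 difference of -0.41, an SE of 0.19 and a limma adjusted p of 0.875. Hsp90b1, the ER form of Hsp90, read 17296 and 17426 on the wild-type arrays and 16017 and 13908 on the labelled-knockout arrays, again with the knockout arrays lower, and a log2 difference of -0.22 (SE 0.23). Dnajb11, another J-domain co-chaperone, lay on the other side, at 4892 and 4588 on the wild-type arrays and 5042 and 5534 on the labelled-knockout arrays. Its difference of 0.16 had an SE of 0.17, and was 0.043 within replicate 1 and 0.27 within replicate 2.

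The lectin chaperones, which hold glycoproteins until they are folded, overlapped between the groups. Calr, calreticulin, read 22153 and 26294 on the wild-type arrays and 19831 and 26249 on the labelled-knockout arrays, a log2 difference of -0.081. Canx, its membrane-bound relative calnexin, read 15223 and 15956 on the wild-type arrays and 13829 and 16587 on the labelled-knockout arrays, a difference of -0.041. In both, labelled knockout replicate 1 was the lowest array. Sdf2l1, a partner of BiP and the J-domain proteins, read 1655 and 1615 on the wild-type arrays and 1767 and 997 on the labelled-knockout arrays. Labelled knockout replicate 2 alone was low, and the log2 difference of -0.30 turned to 0.11 without that array. This is the array with placental transcripts, and their part was not tested. Manf, a secreted stress protein that binds BiP, read 6770.2 and 8793 on the wild-type arrays and 7155 and 8811 on the labelled-knockout arrays, and Hyou1, an Hsp110-type exchange factor for BiP, read 3989 and 2956 on the wild-type arrays and 4071 and 2772 on the labelled-knockout arrays. Their differences were 0.041 and -0.032, with the replicate 2 arrays higher for Manf and lower for Hyou1 in both genotypes.

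Of the 5 protein disulfide isomerases, which form and reshuffle disulfide bonds, Pdia4 had the largest difference of all 36 genes. Pdia4, also called ERp72, read 2383 and 4527 on the wild-type arrays and 1727 and 2305 on the labelled-knockout arrays, or a wild-type mean of 3455 ± 1515 and a labelled-knockout mean of 2016 ± 409 (SD, n = 2). Wild-type replicate 2 stood apart from the other 3 arrays. The log2 difference was -0.72 with an SE of 0.32, a 95% interval of -1.48 to 0.048 and a limma adjusted p of 0.875. It was -0.25 without wild-type replicate 2 and -1.18 without wild-type replicate 1, and kept its sign in both. Wild-type replicate 2 was also the array with the highest sum of the 5 measured salivary gland markers, at 434 and 33812 on the wild-type arrays and 13421 and 6562 on the labelled-knockout arrays, with 3 of 5 above the level filter there and 0 on wild-type replicate 1. None of these markers was listed at 0. The sum over 7 fetal liver and yolk sac markers was 1033 and 47064 on the wild-type arrays and 2601 and 31550.3 on the labelled-knockout arrays. The high sums came from different markers. Afp, Apoa1 and Ttr read 24975, 11262.5 and 4684 on wild-type replicate 2. On labelled knockout replicate 2 they read 2282, 447 and 27074.5. The part of these tissues in the Pdia4 values was not tested.

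The other isomerases differed less. P4hb, both the isomerase PDI and the beta subunit of collagen prolyl 4-hydroxylase, read 16888 and 26201 on the wild-type arrays and 17419.5 and 26427 on the labelled-knockout arrays. Arrays of the same number were nearly equal, and the difference was 0.029 with an SE of 0.34. Pdia3, also called ERp57, which works with calreticulin and calnexin on glycoproteins, read 10773 and 16419.6 on the wild-type arrays and 9586 and 16087 on the labelled-knockout arrays, so that both replicate 2 arrays were again the higher ones, with a difference of -0.10. Pdia6, which has an ERSE in its promoter, read 7151 and 7711 on the wild-type arrays and 7144 and 9042 on the labelled-knockout arrays, with only labelled knockout replicate 2 standing higher. Pdia5 read 3425 and 3222 on the wild-type arrays and 2718 and 3216 on the labelled-knockout arrays, where labelled knockout replicate 2 was level with wild-type replicate 2. The log2 differences of Pdia6 and Pdia5 were 0.11 and -0.17, with SEs of 0.19 and 0.18.

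Collagen-modifying enzymes and collagen chaperones were higher in 5 of 8 measured genes and lower in 3, and none passed the test. The 3 lysyl hydroxylases, which prepare collagen lysines for glycosylation and cross-linking, did not go the same way. Plod2, the enzyme of the telopeptide lysines, read 4949 and 3766 on the wild-type arrays and 3535 and 3020.1 on the labelled-knockout arrays. The knockout arrays lay below both wild-type arrays, with a log2 difference of -0.40, an SE of 0.20 and a limma adjusted p of 0.875. Plod1, which acts on lysines of the helix, read 3089.8 and 2318 on the wild-type arrays and 2848 and 3627 on the labelled-knockout arrays, a difference of 0.26 in which the groups overlapped. It was -0.12 within replicate 1 and 0.64 within replicate 2. Plod3, which is also a glycosyltransferase, read 1156 and 1353 on the wild-type arrays and 1912 and 1204 on the labelled-knockout arrays. Labelled knockout replicate 1 alone was high, and the difference was 0.72 within replicate 1 and -0.17 within replicate 2.

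The collagen chaperone Serpinh1, or Hsp47, which binds the folded triple helix, read 17759.8 and 22288 on the wild-type arrays and 17160.1 and 20722 on the labelled-knockout arrays. Its log2 difference was -0.077 with an SE of 0.27 and a 95% interval of -0.71 to 0.55, and the arrays separated by number rather than by genotype. Ppib, the prolyl isomerase cyclophilin B, read 14912 and 20419 on the wild-type arrays and 14709 and 22937 on the labelled-knockout arrays, again with both replicate 2 arrays above both replicate 1 arrays. Crtap, its partner in the prolyl 3-hydroxylation complex, read 6015 and 5452 on the wild-type arrays and 6011 and 7589 on the labelled-knockout arrays. Leprel1, now named P3h2, a prolyl 3-hydroxylase, read 3418 and 3222 on the wild-type arrays and 3354 and 4515 on the labelled-knockout arrays. Both Crtap and Leprel1 were high on labelled knockout replicate 2 alone, with differences of 0.24 and 0.23, while their replicate 1 arrays were nearly level. Fkbp14, an isomerase that assists collagen folding, read 5747 and 5844 on the wild-type arrays and 4805 and 6374 on the labelled-knockout arrays, a difference of -0.066.

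On their brightest probe sets the translocation channel genes lay near 0 apart from Sec61a1. Sec61a1 encodes the pore of the channel and read 9885 and 14064 on the wild-type arrays and 9707 and 19216 on the labelled-knockout arrays. The replicate 2 arrays were higher in both genotypes and the labelled knockout one highest, so the log2 difference of 0.21 was -0.026 within replicate 1 and 0.45 within replicate 2. Without labelled knockout replicate 2, the array with placental transcripts, it was -0.28, and the part of that tissue in the value was not tested. Sec61b, a small subunit of the channel, read 12125 and 14462 on the wild-type arrays and 11838 and 14050.1 on the labelled-knockout arrays, and Ssr1, of the associated TRAP complex, read 16279 and 19293 on the wild-type arrays and 14433 and 20726 on the labelled-knockout arrays. Their differences were -0.038 and -0.035.

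Coat and export genes were mixed as well. Sec24d, the COPII cargo adaptor needed for collagen export in cartilage, read 6176 and 6342 on the wild-type arrays and 5626 and 5219.8 on the labelled-knockout arrays. Both knockout arrays were lower, with a log2 difference of -0.21, an SE of 0.17 and a limma adjusted p of 0.876. Its inner-coat partner Sec23a, mutated in a human skull and skeletal disorder, read 11839 and 12725 on the wild-type arrays and 10262 and 15319 on the labelled-knockout arrays, and the outer-coat gene Sec13 read 7359.6 and 9014 on the wild-type arrays and 7202 and 11556 on the labelled-knockout arrays. In both, labelled knockout replicate 2 was the highest array and labelled knockout replicate 1 the lowest. Their log2 differences were 0.031 and 0.16. Mia3, the TANGO1 receptor that loads procollagen into carriers, read 4926 and 3809 on the wild-type arrays and 4401 and 3246 on the labelled-knockout arrays on its brightest probe set, a difference of -0.20. Trappc2, the tethering-complex subunit called sedlin, was the most even gene of the set, at 1746 and 1638 on the wild-type arrays and 1706 and 1689 on the labelled-knockout arrays, with a difference of 0.0052 and a 95% interval of -0.49 to 0.50.

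Transcription factors of the stress response and Herpud1 showed no shared direction. Xbp1, the factor activated by splicing of its own mRNA, read 6039.5 and 6866 on the wild-type arrays and 7483 and 6525 on the labelled-knockout arrays. Atf6, the membrane-bound factor that acts on the ERSE, read 2473 and 2239 on the wild-type arrays and 2460.1 and 2088 on the labelled-knockout arrays. The differences were 0.12 and -0.054, and these probe sets do not tell spliced from unspliced Xbp1. Creb3l1, or OASIS, a factor of bone and matrix secretion, read 1671 and 3377 on the wild-type arrays and 3139.6 and 2204 on the labelled-knockout arrays. The samples of each genotype differed more than the genotypes did, and the log2 difference of 0.15 was 0.90 within replicate 1 and -0.61 within replicate 2. Creb3l2, or BBF2H7, which drives Sec23a in chondrocytes, read 6388 and 4867 on the wild-type arrays and 5892 and 4833 on the labelled-knockout arrays, a difference of -0.063 with a 95% interval of -0.55 to 0.42. Herpud1, a target of the stress response that serves ER-associated degradation and has an ERSE-II in its promoter, read 4418 and 4601 on the wild-type arrays and 5565 and 4683 on the labelled-knockout arrays. Both knockout arrays were above both wild-type arrays, by a difference of 0.18 with an SE of 0.17.

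**Figure D3:**
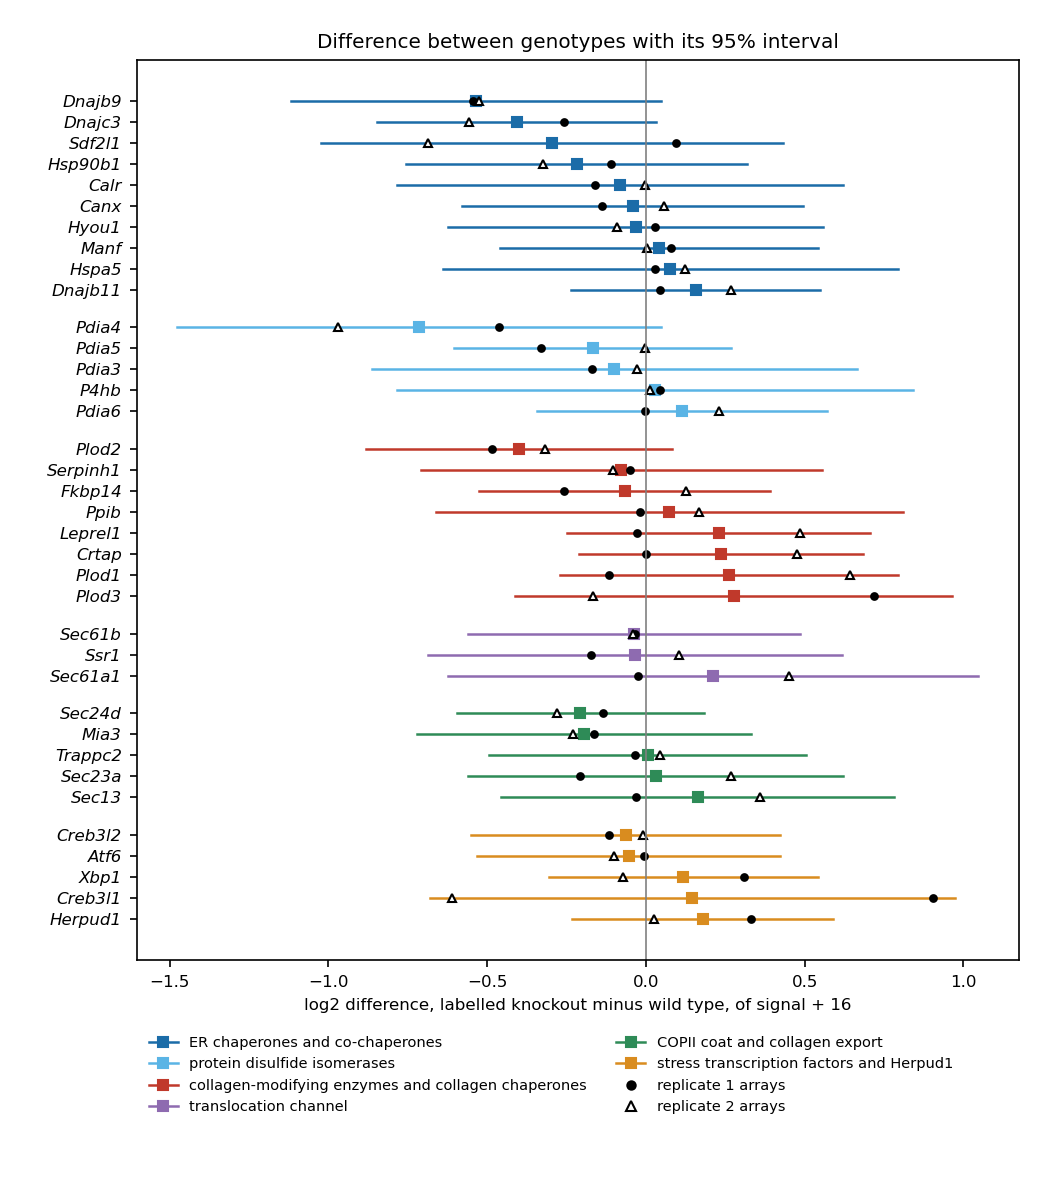
Log2 difference of each gene (squares, labelled knockout minus wild type, log2 of signal + 16) with the 95% interval of the limma fit, and the differences between the replicate 1 arrays (circles) and the replicate 2 arrays (open triangles). Every interval crosses 0, and Pdia4, Dnajb9, Dnajc3 and Plod2 lie farthest to the left with both pairs of arrays below 0.

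By role, the medians of the log2 differences ran from -0.10 to 0.15. The chaperones had a median log2 difference of -0.061, with 7 of 10 lower, and medians of -0.041 and -0.047 within replicate 1 and within replicate 2. The isomerases had -0.10, with 3 of 5 lower, and -0.17 within replicate 1 and -0.0029 within replicate 2. The collagen-modifying genes had 0.15, but -0.038 and 0.15 within the 2 replicate numbers, so the higher value came from the replicate 2 arrays. Without labelled knockout replicate 2 their median was -0.10. The translocation genes had -0.035, the coat and export genes 0.0052 and the transcription factors with Herpud1 0.12. The last of these was 0.31 within replicate 1 and -0.073 within replicate 2, where all genes tested had 0.031 and 0.044. With each array centred on its median the medians of the chaperones, the isomerases and the translocation genes turned positive, while the median of all genes was 0.27. Relative to all genes they were still lower. The differences between roles were not tested, since the genes were not drawn independently of each other.

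The values were also set out by promoter. The 6 with an ERSE had a median log2 difference of -0.061, from -0.41 in Dnajc3 to 0.11 in Pdia6. The 23 measured genes whose promoter had none had a median of -0.035, from -0.72 to 0.28. Among the ERSE genes 2 of 6 had both knockout arrays below both wild-type arrays, Hsp90b1 and Dnajc3, and 0 had both above. Without an ERSE these counts were 4 and 2 of 23, and over all genes tested the shares were 14.6% and 21.5%.

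Many of the brightest genes separated the arrays by replicate number and not by genotype. The replicate 2 array was above the replicate 1 array in both genotypes for 16 of the 36 genes, or 44.4%, against 26.2% of all genes tested. P4hb was 0.63 higher on the log2 scale on replicate 2 in wild type and 0.60 higher in the labelled knockout, Pdia3 0.61 and 0.75, and Hspa5 0.44 and 0.53. The reverse order was seen in 8 genes, among them Dnajb9, at -0.49 and -0.47, Hyou1 and Mia3.

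Brightness moved with this pattern. Of the 12 genes whose probe sets were in the brightest 10% of those tested, 11 were higher on replicate 2 in both genotypes, and so were 76.9% of all 1170 genes at that brightness. The exception was Hsp90b1, whose replicate 2 minus replicate 1 was 0.011 and -0.20. After quantile normalisation, which gives all arrays the same distribution, the count over the 36 genes was 11 in place of 16. The median over the 36 genes then went from 0.063 to -0.0011 in wild type and from 0.25 to -0.018 in the labelled knockout. The medians of the disulfide isomerases went from 0.61 and 0.41 to 0.20 and 0.34. No label states what a replicate number stands for.

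**Figure D4:**
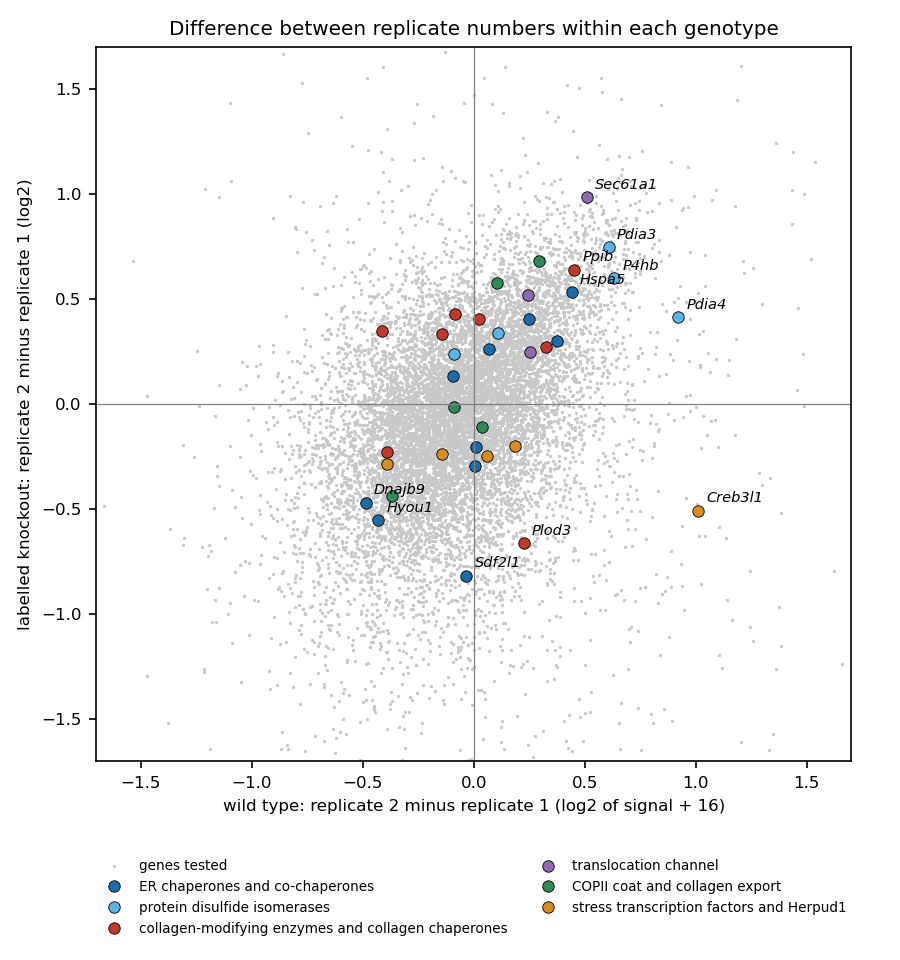
Replicate 2 minus replicate 1 (log2 of signal + 16) in wild type (x axis) and in the labelled knockout (y axis) for the 36 genes, coloured by role, over the genes tested in grey; 146 of the tested genes lie outside the axes. P4hb, Pdia3, Hspa5, Ppib and Sec61a1 lie in the upper right, Dnajb9 and Hyou1 in the lower left, and Creb3l1 off the diagonal at 1.01 and -0.51.

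Several genes were read by more than 1 probe set, which target different parts of a transcript, and these did not always point the same way. Of 17 genes with at least 2 probe sets above the level filter, 7 had the same sign on all of them and 10 did not, with a median spread of 0.20 between the highest and lowest log2 difference of a gene. Mia3 was lower on all 4 of its probe sets, and by more on the 3 dimmer ones than on the brightest. Probe set 1459070_at read 1852 and 2352 on the wild-type arrays and 1170.3 and 952 on the labelled-knockout arrays, a log2 difference of -0.97, and 1459984_at read 2734 and 3720.0 on the wild-type arrays and 1901 and 2218 on the labelled-knockout arrays, a difference of -0.63. The dimmest, 1434698_at, gave -0.31. On these 3, both knockout arrays lay below both wild-type arrays, which was not the case on the brightest probe set, 1455066_s_at. On brightest probe sets this held for 14.6% of all genes tested. The 3' to 5' ratio of the actin controls was 1.69 and 1.66 on the wild-type arrays and 1.90 and 1.97 on the labelled-knockout arrays. For Gapdh it was 1.26 and 1.40 on the wild-type arrays and 1.36 and 1.61 on the labelled-knockout arrays. The part of these ratios in the probe set values was not tested.

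Dnajc3 had 5 probe sets. The brightest, 1433887_at, gave -0.41 and the dimmest, 1449373_at, -0.64, while 1449372_at, which read 3534 and 4381 on the wild-type arrays and 3564 and 4659.8 on the labelled-knockout arrays, gave 0.050. Plod2 gave -0.40 and -0.14 on its 2 probe sets. The Hsp90b1 pair gave -0.22 and -0.37, and on both the knockout arrays lay below wild type. Xbp1 gave 0.12 on the brightest and between -0.079 and -0.063 on the other 3, and Sec61a1 ranged from -0.21 to 0.31 over the 4 above the filter. Ssr1 gave -0.035 on the brightest, -0.43 on 1417764_at, -0.16 on 1448843_at and 0.089 on 1441327_a_at. On 1417764_at and 1448843_at both knockout arrays lay below both wild-type arrays. On brightest probe sets 14.6% of all genes tested did so. Dnajb9 and Pdia4 had only 1 probe set above the filter. The probe sets used for Calr, Serpinh1 and Ppib have names ending in x_at and those for Hspa5, Canx, Hyou1 and Mia3 in s_at, and such probe sets can bind more than 1 transcript.

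**Figure D5:**
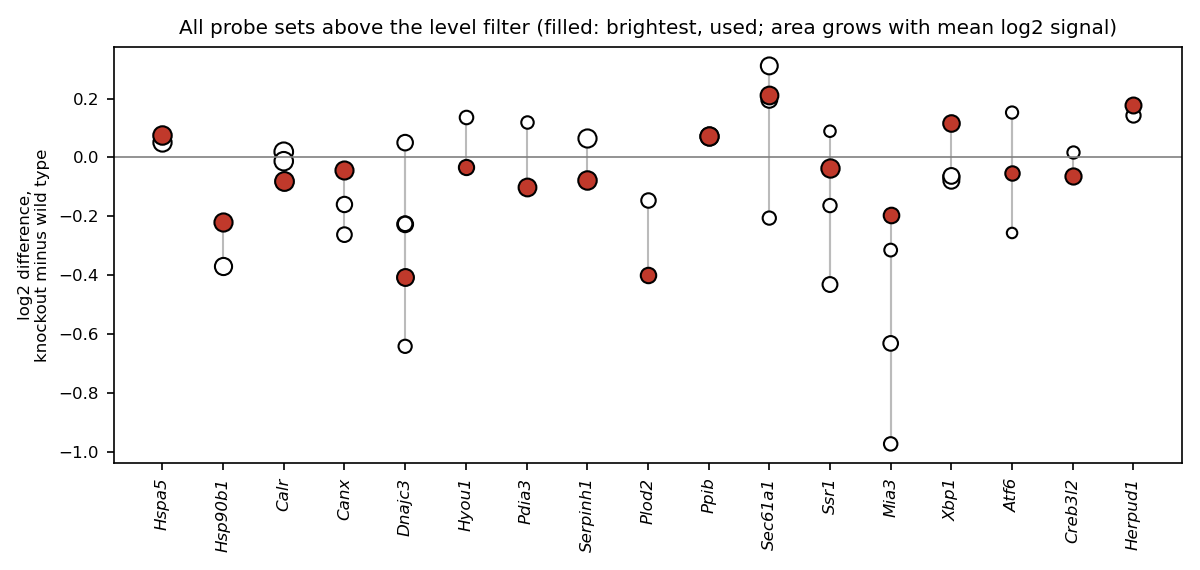
Log2 difference (labelled knockout minus wild type) of every probe set above the level filter for the 17 genes with at least 2, the brightest filled and symbol area growing with the mean log2 signal. All 4 probe sets of Mia3 lie below 0, whereas those of Dnajc3, Ssr1 and Sec61a1 fall on both sides of 0.

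Other genes of the same steps were measured beside the set, and those named from each list had its smallest unadjusted p. Over the 6 lists of such genes, 113 of 119 were tested, 0 had an adjusted or an unadjusted p under 0.05, against 0% and 4.58% of all genes, and 58 were higher and 55 lower, where 6540 of 11694 genes were higher. The median log2 difference was 0.0029. Among 22 other chaperones and folding enzymes 13 were higher. Ero1b, formerly Ero1lb, an oxidase that recharges the isomerases, read 3388 and 3289 on the wild-type arrays and 2945 and 2129.8 on the labelled-knockout arrays, a difference of -0.41, while the glucosidase genes Mogs and Prkcsh, of N-glycan trimming, had 0.24 and 0.27. Genes of ER-associated degradation were lower in 8 of 12. Derl3, a stress-induced channel component, was -0.42, and Derl1 and Os9 were -0.28 and -0.26. The 2 Golgi proteases that cut and activate ATF6 and the Creb3l factors lay on opposite sides. Mbtps1, site-1 protease, read 6791 and 6767 on the wild-type arrays and 7706 and 8614 on the labelled-knockout arrays, and Mbtps2, site-2 protease, read 2805 and 2888 on the wild-type arrays and 2399 and 2180.4 on the labelled-knockout arrays. The groups did not overlap for either gene, as can follow from naming genes by small p. Over all genes tested, both knockout arrays lay above both wild-type arrays for 21.5% and below for 14.6%. The log2 differences of Mbtps1 and Mbtps2 were 0.26 and -0.31. Creb3, a related factor, had 0.30.

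The further collagen-modifying and processing genes had 9 of 18 higher. Tmem38b, an ER cation channel gene mutated in brittle bone disease, read 3298 and 3450.1 on the wild-type arrays and 2459.6 and 2782 on the labelled-knockout arrays, a difference of -0.36. Colgalt2, a collagen galactosyltransferase, had -0.48, and Adamts3, a procollagen peptidase, had -0.34. In targeting and translocation 11 of 26 were higher. Sec63, the channel partner that brings BiP to the pore, had -0.43, and Srp68 and Srp72, which pair in the signal recognition particle, had 0.38 and 0.27. Of the COPII and ER to Golgi genes 17 of 29 were higher. Preb, the exchange factor that starts coat assembly, had 0.43, the syntaxin gene Stx5a had 0.36, and the coat gene Sec24a had -0.39. In all 3 of these, named for their small unadjusted p, the groups did not overlap. Over all genes tested, 21.5% had both knockout arrays above and 14.6% below both wild-type arrays. None of the 3 passed the test.

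The cargo of this machinery, 22 collagens and cartilage matrix genes, was lower in 15 genes and higher in 7. Both knockout arrays were below both wild-type arrays for 7 of 22, or 31.8%, against 14.6% of all genes tested, and both above for 0, against 21.5%. The cargo genes were bright, with a median at the 96.1st percentile of those tested. Of the 1170 genes in the brightest 10%, 166 lay below in this way and 95 above. These counts were made on the deposited scale, not on centred arrays, and were not tested. The median log2 difference of the 22 cargo genes was -0.056, and within replicate 1 and within replicate 2 it was -0.19 and -0.10. The 3 with the smallest unadjusted p were Col12a1, a fibril-associated collagen, Col11a2, a minor cartilage collagen chain, and Matn3, a cartilage adaptor protein. Their log2 differences were -0.57, -0.55 and -0.35. Of these 22 genes 0 had an adjusted p under 0.05, against 0% of all, and 2 had an unadjusted p under 0.05, Col12a1 and Col11a2, against 4.58% of all. The cargo was also higher on replicate 2, by medians of 0.25 among wild-type and 0.30 among labelled-knockout arrays.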

How the data were processed

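Gene expression was measured on 1 Affymetrix array of 45101 probe sets per sample, 2 samples per genotype. Per the labels' protocols, Trizol RNA was SPIA-amplified and labelled with biotin. The deposited intensity values are linear MAS5 signals, per the submitters' processing notes; no version or scaling target is stated in the sources used here. With the top and bottom 2% left out every array averaged 1500.0, as after scaling to 1 target. Amplification favours 3' ends and MAS5 is noisy for dim probe sets, and no detection calls were used. The number of arrays limits the precision.

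Probe sets with exactly 1 gene in a platform annotation table (34945; several 932, none 9160, controls 64) were named through RefSeq identifiers of GRCm38.p6. Each gene kept its brightest probe set by mean log2(signal + 16), and genes were tested if it reached the median taken over probe sets other than controls. All 36 measured genes of the set passed that filter. The test was limma 3.58.1 in R 4.3.3 (lmFit, eBayes with trend) with genotype as the only term over all 4 arrays. The p-values were adjusted over 11694 genes with a threshold of 0.05. A check on simulated data with independent errors required only that added differences keep their size. It did not cover errors shared between arrays or tissue content of single arrays. The log2 scale with a pseudocount understates differences of dim genes. Groups and replicate numbers came from sample titles. The members, gene lists and roles were chosen with earlier results of these data known. Named genes are all members, the 3 genes of each further list with the smallest unadjusted p, and Cacna1h; Mia3 and other single probe sets, and the markers named singly, were picked after their values were seen. Alternatives were quantile normalisation, centring of arrays, array weights, no trend, pseudocounts of 1 and 64, the 75th percentile as filter or none, averaging a gene's probe sets, a replicate block and each array left out. Figures used matplotlib 3.10.9 (Python 3.11.15).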

Additional observations from a re-analysis of the deposited data

How the results depend on the processing

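Under all 14 alternatives 0 of the 36 genes had an adjusted p under 0.05 where tested (the 75th percentile filter left out Plod3, Sdf2l1 and Trappc2), the smallest being 0.0513 for Dnajb9 without labelled knockout replicate 1. Dnajb9, Dnajc3, Pdia4 and Plod2 were lower, and Crtap, Dnajb11, Herpud1 and Leprel1 higher, under every alternative, while the other 28 changed sign under at least 1. The filters, no trend, array weights and the replicate block cannot change the sign of a gene. Nor can averaging probe sets for Dnajb9, Crtap, Dnajb11 and Leprel1, which have 1 each. Within replicate 1 alone Crtap was -0.00084 and Leprel1 -0.027. Over all genes the count of calls was 0 except with an array left out, where it ranged from 0 to 492: it was 492 when labelled knockout replicate 1 was left out, 104 for labelled knockout replicate 2 and 1 for wild-type replicate 2, with the lone array assumed to vary like the others. The same replicate numbers do not pair samples by any label. The correlation of deviations of same-numbered arrays was 0.32 over all genes tested, and the replicate block left 0 calls, with 1359 unadjusted p under 0.05 in place of 536, 4 of them among the 36 genes. Centring moved the median of all genes from 0.039 to 0.27. The medians then were: the 36 genes 0.20, collagen-modifying enzymes and collagen chaperones 0.38, COPII coat and collagen export 0.24, ER chaperones and co-chaperones 0.17, protein disulfide isomerases 0.13, translocation channel 0.20; and these genes changed sign: Hsp90b1 0.014, Calr 0.15, Canx 0.19, Hyou1 0.20, Pdia3 0.13, Pdia5 0.065, Serpinh1 0.15, Fkbp14 0.17, Sec61b 0.19, Ssr1 0.20, Sec24d 0.025, Mia3 0.036, Atf6 0.18, Creb3l2 0.17. With the mean of all probe sets the values were ER chaperones and co-chaperones -0.21, Hspa5 -0.27, Pdia3 0.011, Pdia6 -0.020, Plod1 -0.67, Sec61a1 -0.012, Xbp1 -0.023. With quantile normalisation they were the 36 genes -0.058, ER chaperones and co-chaperones -0.15, P4hb -0.040, Sec23a -0.053, and with the filter at the 75th percentile ER chaperones and co-chaperones -0.041. With each array left out in turn the medians ranged as follows: the 36 genes -0.16 to 0.085, collagen-modifying enzymes and collagen chaperones -0.10 to 0.27, COPII coat and collagen export -0.15 to -0.0022, ER chaperones and co-chaperones -0.18 to -0.11, protein disulfide isomerases -0.29 to 0.27, translocation channel -0.28 to 0.23. The single genes that changed sign ranged as follows: Hspa5 -0.19 to 0.34, Calr -0.28 to 0.12, Canx -0.17 to 0.090, Sdf2l1 -0.70 to 0.11, Manf -0.15 to 0.23, Hyou1 -0.31 to 0.24, P4hb -0.29 to 0.35, Pdia3 -0.47 to 0.27, Pdia6 -0.056 to 0.28, Serpinh1 -0.24 to 0.086, Fkbp14 -0.27 to 0.14, Plod3 -0.054 to 0.61, Ppib -0.25 to 0.39, Sec61a1 -0.28 to 0.70, Sec61b -0.17 to 0.089, Ssr1 -0.30 to 0.23, Sec23a -0.26 to 0.32, Sec13 -0.18 to 0.50, Mia3 -0.41 to 0.023, Trappc2 -0.040 to 0.051, Atf6 -0.17 to 0.064, Creb3l1 -0.36 to 0.65, Creb3l2 -0.26 to 0.13. The cause of these changes was not tested. The small number of arrays limits the precision: the median SE of the log2 difference was 0.23 among the 36 genes.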

Other observations

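Probe sets below the level filter, which entered only the mean of all probe sets among the alternatives, gave other values for some of the same genes. The third Hspa5 probe set, 1447824_x_at, read 315 and 365 on the wild-type arrays and 269.7 and 103 on the labelled-knockout arrays, a log2 difference of -0.94 against 0.076 on the brightest. The second Plod1 probe set, 1445893_at, read 143 and 161 on the wild-type arrays and 71.4 and 19.1 on the labelled-knockout arrays, a difference of -1.60 against 0.26. On both, the knockout arrays were below both wild-type arrays. All 8 probe sets of the set below the filter had a negative difference, and these 2 had the largest. The matching shares over all probe sets below the filter were not counted, so these counts cannot be called particular to the set. With no filter on dim genes the median log2 difference over 18193 genes was -0.018, against 0.039 over the genes tested. The median signal over all probe sets was 459 and 416 on the wild-type arrays and 426 and 320 on the labelled-knockout arrays. The part of that in the dim values was not tested. The Hspa5 and Plod1 values were picked after they were seen, and MAS5 signals at this level are noisy.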
